A study of Danio rerio with 72 samples.

Results

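The unstressed vehicle heads were 6 RNA-seq libraries of the 72 in a zebrafish series, and replicates 1 to 3 were set against replicates 4 to 6. The division was chosen from the expression values themselves, after earlier results of these data had shown it. The labels name no batch, day or clutch that separates the replicates. Sample-sheet numbers were 52, 66 and 72 for replicates 1 to 3 and 54, 60 and 67 for replicates 4 to 6, so they do not fall into separate ranges. The difference between the sets inside this group is therefore given as a description, with no test.

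Each library came from a pool of 22 dissected larvae aged 6 days. All larvae carried the SR4G transgene, in which glucocorticoid response elements control a short-lived green fluorescent reporter that has its own entry, d4EGFP. The 6 libraries were raised in 0.0053% ethanol, the vehicle, from 0 to 6 days after fertilization and were not stressed. The other 18 larval libraries were 6 stressed vehicle, 6 unstressed fluoxetine and 6 stressed fluoxetine pools. Fluoxetine, a serotonin reuptake inhibitor, was given at 54 ug/L over the same days. The sources used here do not give the kind of stressor or its timing. The tissue label says larval head, while the titles carry the word whole. A head cut from a larva also holds jaw muscle, cartilage, skin, eyes and ears, and the labels do not say where the cut was made. Whether the pools came from separate tanks or clutches is not stated, so p-values measure the spread between these pools. Total counts were 16.6 to 19.9 M in the 6 libraries and 10.2 to 19.6 M in the other 18.

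Bulk RNA from a dissected head is a sum over every tissue in the tube. Skeletal muscle, liver and skin each make a small set of transcripts in very large amounts, so their genes serve as markers of how much of that tissue was sampled. Dividing cells are read from genes of DNA replication and mitosis, which in larvae are active in the growing brain and retina as well as in gut, cartilage and skin. A level that differs between pools can reflect fewer cells of a type or less RNA per cell, and bulk libraries cannot tell these apart.

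These 6 libraries stood apart from the rest of the larval set. Over 20260 genes tested, the sum of squared deviations from the group mean, on a scale of log2 CPM (counts per M of library), was 58291. The same sum was 16888 in the stressed vehicle group, 15046 in the unstressed fluoxetine group and 13327 in the stressed fluoxetine group. The median gene had an SD of 0.48 log2 units, against 0.25 to 0.26 in the other groups. One component held 81.0% of the spread, and the difference between replicates 1 to 3 and 4 to 6 held 75.4%. Positions on that component were 0.45, 0.37 and 0.35 for replicates 1 to 3, −0.51 and −0.49 for replicates 4 and 5, and −0.18 for replicate 6. Replicate 6 therefore lay between the sets. Across genes, replicates 4 and 5 correlated at r = 0.983, replicate 6 with either at 0.951 to 0.953, and replicate 6 with replicates 1 to 3 at 0.873 to 0.918.

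Replicates 1 to 3 left the range of the other larvae most often. All of them lay above each of the other 18 larval libraries in 4243 genes (20.9%) and below each in 3048 (15%). For replicates 4 to 6 jointly these counts were 90 and 92, and for replicates 4 and 5 alone 623 and 1063. Taken singly, replicate 1 lay above in 6361 genes and below in 5521. The single counts were 1607 and 2107 for replicate 4, 2014 and 2355 for replicate 5, and 1801 and 1238 for replicate 6. Replicates 4 and 5 also lay below all 18 in the mean of the skin, collagen and cell cycle lists. So did they for liver, at 2.73 and 2.67 log2 CPM against a lowest value of 2.95. The same held for the radial glia, neural progenitor, oligodendrocyte, blood, pigment and ear lists. Radial glia lay at 5.86 and 5.62 against 5.94, and neural progenitors at 4.029 and 3.823 against 4.033.

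At 2-fold or more and without overlap, 4169 genes were higher in replicates 1 to 3 (20.6% of all tested) and 1747 were lower (8.62%). Of the 4169 higher genes 3863 were also tested in the other larval groups, against 1735 of the 1747 lower genes. Genes that passed the filter only with this group included are thus in these counts and in the list counts below, more often among the higher genes. The median over all genes was 0.00 on the log2 scale. With no fold limit, 6407 genes (31.6%) were higher without overlap, 5747 (28.4%) were lower and 8106 overlapped. The tissue lists divided sharply. Fast and slow muscle, heart, liver, skin, skeleton and cell cycle lists were higher in replicates 1 to 3, and the lens list was lower. The brain lists had medians from −0.41 to 0.47. The muscle progenitor list was mixed, with a median of 0.30 (quartiles −0.26 and 2.09). Of its 14 genes 5 were higher without overlap, 2 lower and 7 overlapped.

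**Figure D1:**
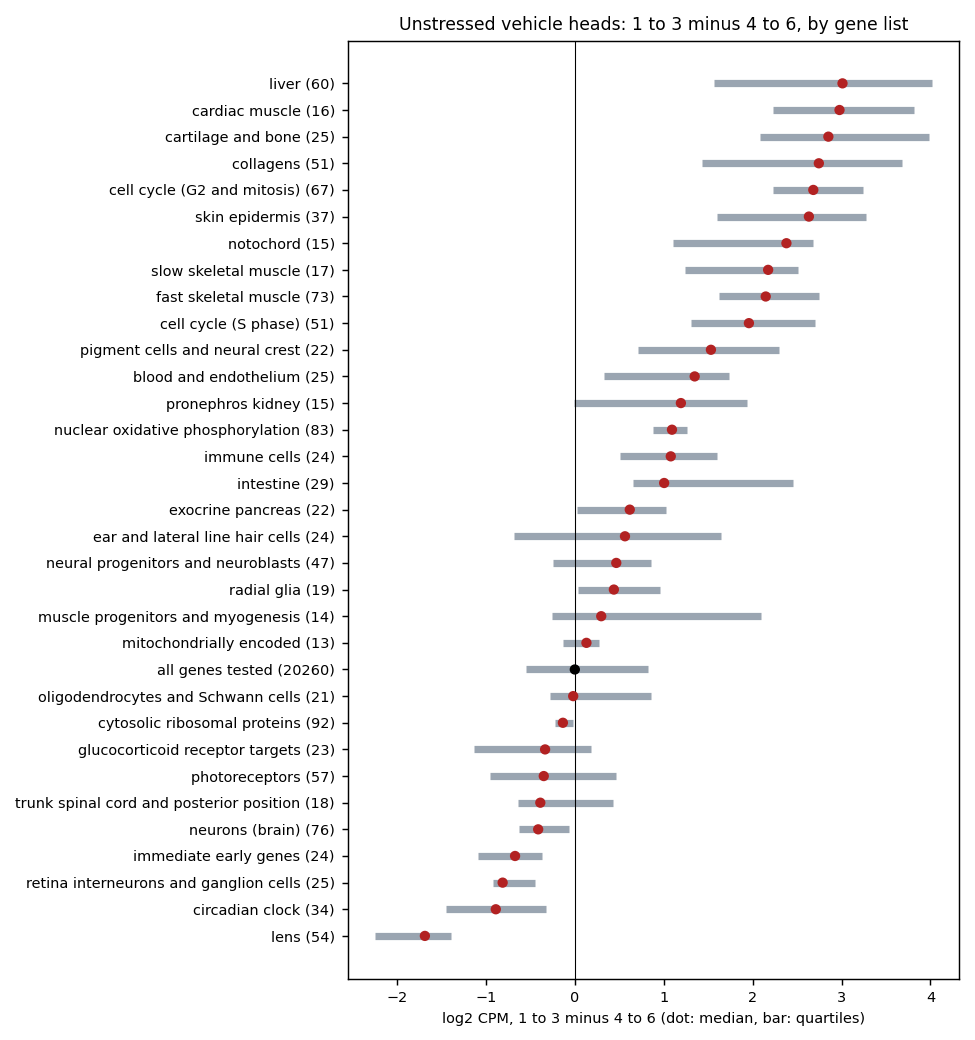
Difference in log2 CPM between replicates 1 to 3 and 4 to 6 of the unstressed vehicle heads, for each gene list, with the number of genes tested in parentheses. Dots are medians and bars run from the lower to the upper quartile over genes, with no test. Liver lies highest with a median of 3.01 and lens lowest with −1.69, while neurons lie at −0.41 and all genes at 0.00.

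Fast skeletal muscle genes, which build the contractile fibres of the body wall and jaw, had a median difference of 2.15 log2 units over 73 genes. Of these, 63 were at least 2-fold higher in replicates 1 to 3 without overlap and 0 lower. The skeletal actin gene ACTA1 (ENSDARG00000055618) read 608, 644 and 668 CPM in replicates 1 to 3 and 3.51, 4.43 and 62.5 CPM in replicates 4 to 6. The first set was thus uniform, and replicate 6 lay well above the other two of its set. In the other 18 larval libraries ACTA1 ranged from 3.81 to 72.4 CPM, so replicates 1 to 3 lay above that range, replicate 4 just below it and replicates 5 and 6 inside it. CASQ1 (ENSDARG00000038716), the calcium store protein of the sarcoplasmic reticulum, read 70.1, 108 and 98 CPM against 1.55, 1.29 and 4.53 CPM. Creatine kinase ckma, an energy buffer of muscle, had a smaller gap, with 2058, 1747 and 1517 CPM against 340, 646 and 480 CPM. Muscle genes were therefore detected in every library, and their difference was one of amount. The fast muscle list took 4.31%, 4.19% and 3.79% of all counts in replicates 1 to 3 and 0.687%, 1.19% and 1.17% in replicates 4 to 6; the other 18 libraries spanned 0.301% to 2.5%.

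Slow muscle moved alike, with a median of 2.17 and 14 of 17 genes higher. Its myosin smyhc1 read 80.4, 157 and 144 CPM against 23.9, 55.4 and 27.1 CPM. Cardiac genes had a median of 2.98, and 14 of 16 were higher. With the other 18 larval libraries alone 12 cardiac genes passed the filter, so the 16 include genes that passed only with this group included. The heart myosin light chain MYL7 read 37.6, 27.9 and 26.9 CPM in replicates 1 to 3 and 3.27, 1.05 and 3.76 CPM in replicates 4 to 6, without overlap. HAND2, a transcription factor of heart and fin bud, read 10.4, 6.73 and 10.7 CPM against 0.357, 0.398 and 1.05 CPM.

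Liver genes had the highest median of any list, 3.01 over 60 genes, with 46 higher and 0 lower. The lipoprotein gene apoa2 read 4081, 1997 and 1868 CPM in replicates 1 to 3, 21.6 and 14.4 CPM in replicates 4 and 5, and 284 CPM in replicate 6. Transferrin (tfa), the iron carrier of plasma, read 870, 797 and 696 CPM against 14.1, 11.7 and 91.8 CPM. Both genes were high in all of the first set, and replicate 6 lay above replicates 4 and 5 but below every library of that set. The hepatocyte fatty acid carrier fabp10a read 539, 451 and 378 CPM against 23.7, 30.6 and 267 CPM. Liver transcripts took 1.99%, 1.38% and 1.31% of counts in replicates 1 to 3 and 0.216%, 0.285% and 0.487% in the others.

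The gut did not move as one organ. Intestine genes had a median of 1.0, with 14 of 29 higher; FABP2, a fatty acid carrier of enterocytes, read 1238, 734 and 735 CPM against 86.5, 189 and 237 CPM. Exocrine pancreas genes overlapped between the sets in 20 of 22 cases. Trypsin (prss1) read 612, 238 and 475 CPM in replicates 1 to 3 and 167, 579 and 624 CPM in replicates 4 to 6, so its low values were replicates 2 and 4. Digestive enzymes thus varied between pools without following the division.

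Skin and skeleton followed it closely. Of 37 epidermal genes 32 were higher, with a median of 2.63. The keratin krt1-19e read 3723, 2017 and 1354 CPM against 26.6, 39.6 and 501 CPM. The fin-fold actinotrichia gene and2 read 63.7, 20.8 and 34.6 CPM against 0.357, 0.498 and 1.43 CPM. Neither gene overlapped between the sets, and replicate 1 was the highest library for both.

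Cartilage and bone genes had a median of 2.85, with 19 of 25 higher, and collagens, a list that shares members with it, had 2.74 with 41 of 51. COL2A1 (ENSDARG00000069093), the main collagen of cartilage, read 1180, 1282 and 1332 CPM in replicates 1 to 3 and 27.5, 19.5 and 392 CPM in replicates 4 to 6. COL10A1 (ENSDARG00000054753), a collagen of maturing cartilage and bone, read 72.2, 47.3 and 90.7 CPM against 0.773, 0.0995 and 1.91 CPM. The notochord list had a median of 2.38, with 11 of 15 higher. Its sheath gene cmn read 15.4, 36.9 and 28 CPM against 0, 0.299 and 0.667 CPM. With the other 18 larval libraries alone, 13 notochord genes and 48 collagens passed the filter.

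**Figure D2:**
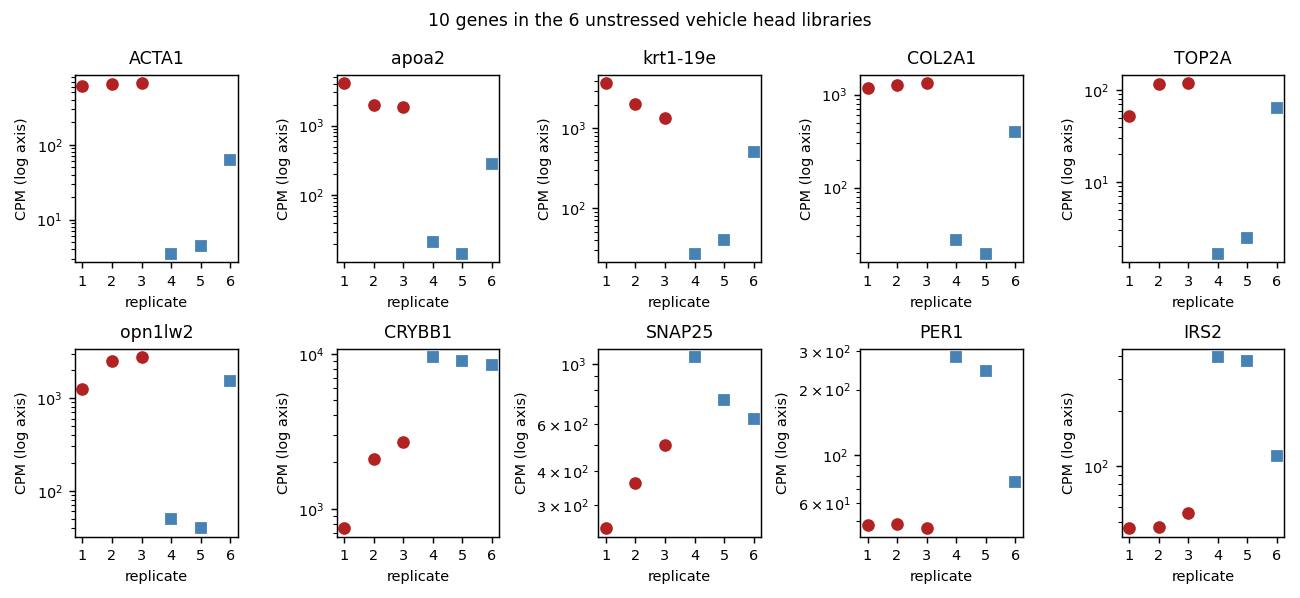
CPM of 10 genes in the 6 unstressed vehicle libraries, on log axes; circles are replicates 1 to 3 and squares replicates 4 to 6. ACTA1, apoa2, krt1-19e and COL2A1 are high in replicates 1 to 3, TOP2A and opn1lw2 are low in replicates 4 and 5 alone, and CRYBB1, SNAP25, PER1 and IRS2 are lower in replicates 1 to 3.

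Position along the body axis was read from hox genes, whose numbers run from hindbrain and neck to tail. Summed hox3 counts were 87.7, 94.3 and 95.9 per M of library in replicates 1 to 3 and 89.5, 103 and 81.3 in replicates 4 to 6, which overlap. Summed hox9 counts were 7.74, 12.3 and 10.3 per M against 3.30, 3.53 and 0.816. Hox10 counts were 3.48, 4.57 and 4.39 per M against 1.14, 1.31 and 0.204. The groups of high number were thus higher in replicates 1 to 3 without overlap, at low counts, while the hindbrain group was level. The other 18 larval libraries spanned 0.975 to 7.38 per M for hox9 and 0 to 5.04 for hox10. Replicates 1 to 3 therefore lay above that range for hox9 but inside it for hox10. Mean log2 CPM of hox9 to hox13 was 0.68, 1.15 and 0.99 in replicates 1 to 3 and at most 0.93 in the other 18, so replicate 1 lay inside their range. By median difference the order was 0.27 for hox1 to hox4 (12 genes), 0.84 for hox5 to hox8 (12 genes) and 2.12 for hox9 to hox13 (5 genes passing the filter of 23 in the table). Of all hox genes 29 passed the filter, against 26 with the other 18 larval libraries alone. The mean of the spinal cord list overlapped between the sets, at a log2 CPM of 2.53, 2.76 and 2.63 against 2.87, 2.72 and 2.79. Its median difference was −0.39 over 18 genes, with 8 lower and 2 higher without overlap and 1 at least 2-fold lower. Over all genes, 28.4% were lower and 31.6% higher without overlap. The muscle lists do not separate trunk from cranial muscle, so the part of trunk muscle in the spread was not tested.

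Dividing cells formed the other main block. Of 51 S-phase genes 43 were higher in replicates 1 to 3, with a median of 1.96, and of 67 genes of G2 and mitosis 51 were higher, with a median of 2.68. TOP2A, the topoisomerase that untangles chromosomes before division, read 52.5, 117 and 119 CPM in replicates 1 to 3, 1.66 and 2.44 CPM in replicates 4 and 5, and 64.5 CPM in replicate 6. Here replicate 6 exceeded replicate 1, so the sets overlap, and only replicates 4 and 5 were low. Cyclin CCNA2 read 21.8, 41.3 and 38.3 CPM, then 0.357 and 0.796 CPM, and 18.8 CPM in replicate 6, which here lay just below replicate 1, without overlap. PCNA, the sliding clamp of replication, read 239, 314 and 324 CPM, then 36.7 and 33.4 CPM, and 135 CPM. Replicates 4 and 5 lay below all of the other 18 larval libraries for the mean of the G2 and mitosis list, at 0.87 and 0.84 log2 CPM against a lowest value of 1.62. The remaining 4 libraries lay above the highest of those 18, which was 3.33, at 4.1, 4.74 and 4.69 and, for replicate 6, 3.75.

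Brain genes moved far less. Of 76 neuronal genes 52 overlapped between the sets, against 8106 of 20260 over all genes, and the median was −0.41. In replicates 1 to 3, 0 were 2-fold higher, against 20.6% of all genes. The 7 that were 2-fold lower (9.21%) were near the share of all genes, 8.62%. Mean neuronal log2 CPM was 5.85, 6.47 and 6.59 in replicates 1 to 3 and 6.49, 6.39 and 6.80 in replicates 4 to 6. Replicate 1 was lowest, and replicates 1, 2 and 5 lay below 6.48, the lowest of the other 18 larval libraries. SNAP25 (ENSDARG00000020609), which drives vesicle fusion at synapses, read 247, 363 and 502 CPM against 1058, 734 and 623 CPM. The inhibitory transmitter enzyme GAD1 (ENSDARG00000027419) read 149, 296 and 326 CPM against 586, 473 and 540 CPM. Both were lower in replicates 1 to 3 without overlap. The RNA-binding protein ELAVL3, made by nearly all neurons, overlapped, at 185, 301 and 349 CPM against 392, 346 and 505 CPM.

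Brain lists of immature cells and glia were mixed. Of 47 neural progenitor genes 5 were higher, 0 lower and 34 overlapped, with a median of 0.47, and of 19 radial glia genes 2 were higher, 2 lower and 10 overlapped, with a median of 0.44. Single genes differed more than their lists. The tubulin tubb5, which was on the neuronal list, read 213, 472 and 448 CPM in replicates 1 to 3. Replicates 4 and 5 read 21.2 and 18.4 CPM, and replicate 6 read 273 CPM. FABP7 (ENSDARG00000007697), a lipid carrier of radial glia, read 713, 786 and 587 CPM, then 102 and 114 CPM, and 485 CPM. The Delta ligand dlb, made by newborn neurons, read 34.9, 45.6 and 39.4 CPM, then 3.03 and 4.28 CPM, and 27.9 CPM. For all 3, replicates 4 and 5 were low and replicate 6 lay near the high set. Myelin mbpa overlapped at 130, 90.3 and 84.8 CPM against 145, 109 and 114 CPM.

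The eye lists differed from each other in size of difference and in how uniform its direction was. Of 54 lens genes 44 were lower in replicates 1 to 3 and 0 higher, with a median of −1.69. The beta crystallin CRYBB1 read 752, 2096 and 2679 CPM in replicates 1 to 3 and 9484, 8977 and 8503 CPM in replicates 4 to 6. Lens transcripts took 1.90%, 3.02% and 3.21% of counts against 10.7%, 9.99% and 8.78%, and the other 18 libraries spanned 5.62% to 11.6%. Here replicates 4, 5 and 6 lay together, and replicates 1 to 3 lay below the range. Genes of retinal interneurons and ganglion cells also lay lower, with a median of −0.81, 14 of 25 lower without overlap (4 of them at least 2-fold) and 0 higher. Photoreceptor genes had a median of −0.35 (quartiles −0.95 and 0.46), with 12 of 57 at least 2-fold lower without overlap, 3 higher and 34 overlapping. Their share of counts overlapped, at 1.33%, 2.52% and 2.68% in replicates 1 to 3 and 1.26%, 1.13% and 2.41% in replicates 4 to 6. The red cone opsin opn1lw2, whose sets overlapped, read 1232, 2521 and 2730 CPM, then 50.2 and 39.8 CPM, and 1504 CPM in replicate 6.

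Other cell types were higher in replicates 1 to 3 by smaller amounts. Pigment cell genes had a median of 1.53, with 14 of 22 higher, blood and endothelium 1.35 with 14 of 25, and immune cells 1.08 with 13 of 24. The pteridine enzyme gch2 of pigment cells read 116, 103 and 89.3 CPM against 3.69, 1.94 and 11 CPM. Nuclear genes of oxidative phosphorylation had a median of 1.09, with 52 of 83 higher, while the 13 mitochondrially encoded genes had 0.13. Cytosolic ribosomal proteins had −0.13, with 84 of 92 overlapping.

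Clock genes ran the other way. Of 34 clock genes 15 were lower in replicates 1 to 3 and 0 higher, with a median of −0.89. The core clock repressor PER1 (ENSDARG00000056885) read 47.5, 48 and 46.2 CPM against 281, 244 and 74.9 CPM, without overlap and with replicate 6 nearest to the low set. Replicates 1 to 3 and replicate 6 lay below 141 CPM, the lowest of the other 18 larval libraries, and replicates 4 and 5 lay above their highest, 203 CPM. The clock output factor dbpb read 59.9, 66.8 and 83.0 CPM against 579, 372 and 133 CPM. The sources used here do not give the time of day of sampling. Targets of the glucocorticoid receptor were mixed, with 6 of 23 at least 2-fold lower without overlap, 2 higher and 12 overlapping, and a median of −0.33. The insulin receptor substrate IRS2 (ENSDARG00000075282), on that list, read 46.3, 47.1 and 55.6 CPM against 392, 375 and 114 CPM. FKBP5, a co-chaperone of that receptor and its common readout, differed in the other direction, at 112, 141 and 109 CPM against 96.9, 95.05 and 29.7 CPM, without overlap. The reporter d4EGFP overlapped, at 28, 19.7 and 21.7 CPM against 27.2, 24.8 and 12.1 CPM. Replicate 6 was the lowest of the 6 for both.

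**Figure D3:**
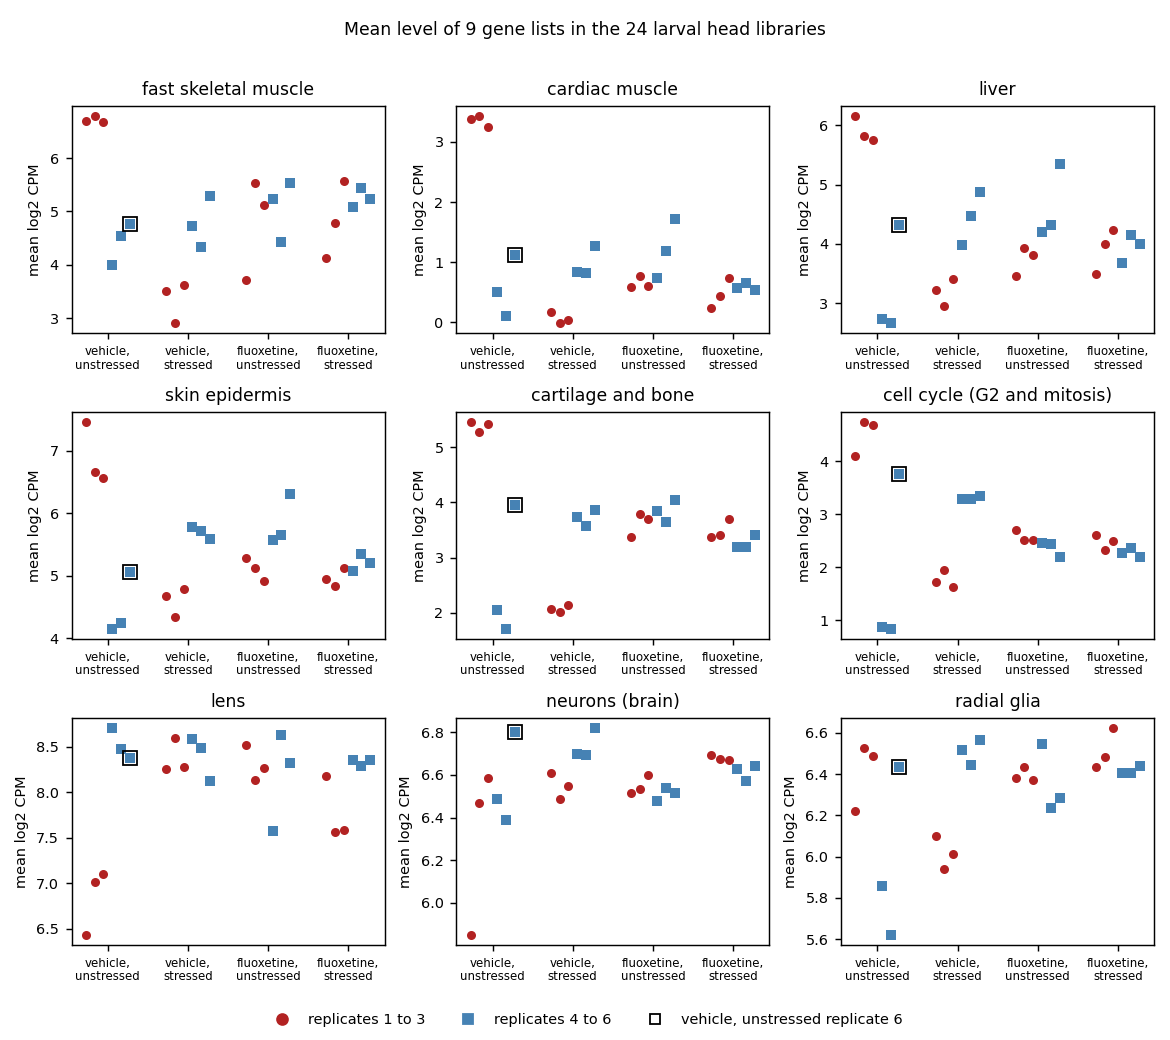
Mean log2 CPM over the genes of selected lists in the 24 larval libraries, by group. In every group circles are replicates 1 to 3 and squares replicates 4 to 6, and an open square marks replicate 6 of the unstressed vehicle group. In that group, replicates 1 to 3 lie above all other larvae for fast muscle (6.67 to 6.79 against at most 5.58) and liver (5.75 to 6.16 against at most 5.35). They lie below them for lens (6.44 to 7.10 against at least 7.57).

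How much of the spread these tissues carried was measured as a share of the sum of squares. The muscle, heart, gut, liver, skin, skeleton, blood, immune, pigment and ear lists together held 463 genes, or 2.29% of those tested, and 8.47% of the spread. The cell cycle lists held 118 genes (0.58%) and 3.15%. The brain lists held 162 genes (0.80%) and 0.56%, and the eye lists 136 genes (0.67%) and 1.01%. Per gene, body tissue, dividing cells and the eye lists were thus over-represented in the spread and brain genes under-represented. Relative to the mean gene, spread was 2.22 for lens and 0.63 for neurons. A low value was not particular to brain, with 0.28 for cytosolic ribosomal proteins, 0.51 for mitochondrially encoded genes and 0.56 for retinal interneurons and ganglion cells. Among single lists, liver had 0.30% of genes and 1.91% of the spread, fast muscle 0.36% and 1.44%, and skin 0.18% and 0.79%. Of the 500 genes with the most spread, 90 were on a body tissue list, 41 on a cell cycle list and 1 on a brain list. All lists together held 14.3% of the spread, so most of it lay in genes on no list.

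The genes tested, on a list or not, were compared with 48 libraries of adults aged 6 months, labelled hypothalamus or telencephalon, brain regions that hold no muscle or liver. The adult mean was taken over all of their groups, vehicle or early fluoxetine (54 ug/L, up to 6 days after fertilization), unstressed or stressed. It is therefore not a mean of untreated fish alone. Each adult library was a pool of 5 fish. In these adult libraries, 46 of 60 liver genes but only 33 of 73 fast muscle genes had a mean below 1 CPM. The remaining muscle genes were thus read in brain libraries too. Of the genes higher in replicates 1 to 3, 44.4% (1853) had an adult mean below 1 CPM. The share was 16.5% of the genes lower in replicates 1 to 3, and 18.8% of all genes tested. Median adult log2 CPM was 0.39 for the first and 3.68 for the second. By share of counts the order was the opposite. The 15280 entries of the whole table with an adult mean below 1 CPM took 9.86%, 8.90% and 9.02% of counts in replicates 1 to 3 and 12.7%, 12.7% and 11.9% in replicates 4 to 6. These entries include 51 of the 54 lens genes tested. The whole lens list took 1.90%, 3.02% and 3.21% of counts in replicates 1 to 3 and 10.7%, 9.99% and 8.78% in replicates 4 to 6. The order by share of counts is therefore not free of lens, and the share without lens genes was not computed. The tally by gene also depends on the filter. Of the 4169 higher genes 3863 were also tested in the other larval groups, against 1735 of the 1747 lower genes. Genes that passed the filter only with this group included were thus more common in the higher set. How far this raised its share below 1 CPM, and whether that share marks a tissue source, was not tested. Larval heads and adult brain regions differ in age as well as tissue, and these cannot be told apart.

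Replicate 6 did not take the same place for every tissue, a measure looked at after the values had been seen. On a scale where 0 is the mean of replicates 4 and 5 and 1 the mean of replicates 1 to 3, its median position was 0.35 over the 7189 genes with a 2-fold gap. For lens it was 0.15, for fast muscle 0.20, for skin 0.28 and for liver 0.50. For S phase it was 0.66, for G2 and mitosis 0.81 and for the 20 neural progenitor genes with such a gap 0.91. By these medians replicate 6 lay with replicates 4 and 5 for lens and fast muscle and nearer to replicates 1 to 3 for dividing cells and for those progenitor genes.

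**Figure D4:**
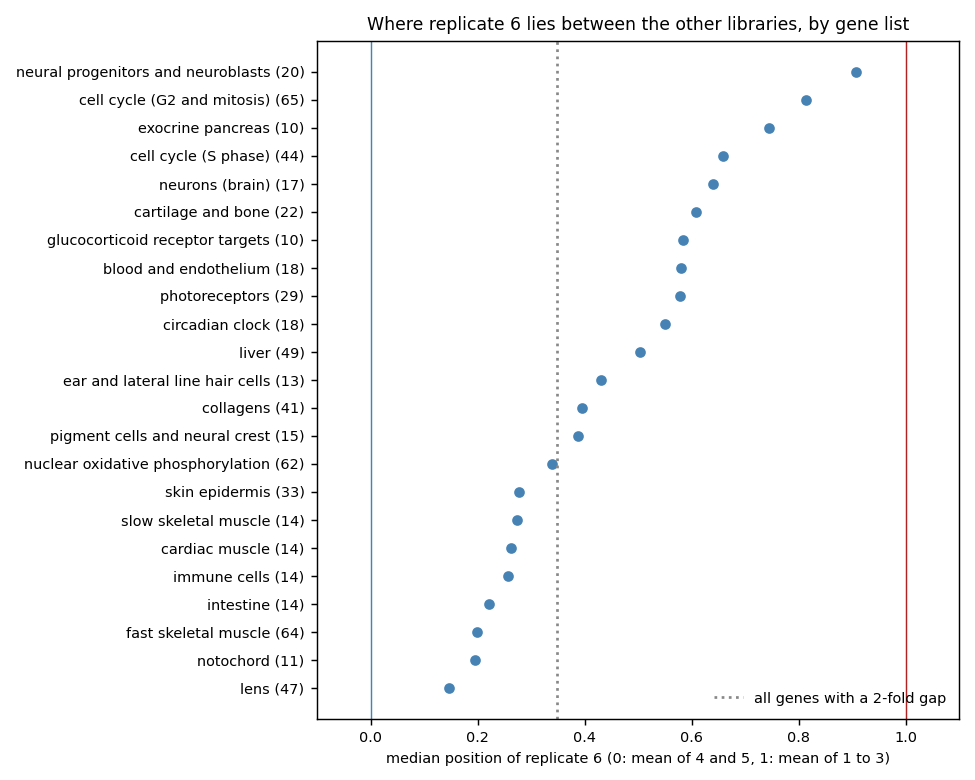
Median position of replicate 6 for each list with at least 10 genes at a 2-fold gap, from 0 (mean of replicates 4 and 5, left line) to 1 (mean of replicates 1 to 3, right line), over those genes (numbers in parentheses). The dotted line is the median over all such genes, 0.35; among the lists drawn, lens lies lowest at 0.15 and neural progenitors highest at 0.91.

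The same replicate numbers were then compared in the 18 libraries that the division did not use. In the stressed vehicle group, where earlier results had already shown a division, 2356 of 19699 genes were higher in replicates 1 to 3 (12%) and 2368 lower (12%) in edgeR. The direction was the opposite of that in the unstressed group. Of the 3863 genes higher in replicates 1 to 3 of the unstressed group and tested here, 1569 were lower in replicates 1 to 3 of the stressed group and 22 were higher. These 1569 were 40.6% of the first list and 66.3% of the genes called lower. Of the 1735 genes lower in the unstressed set 711 were higher here and 7 lower, the 711 being 41% of that list and 30.2% of the genes called higher. Among all 19699 genes, 3863 were in the first list and 1735 in the second. Of the 14101 genes in neither, 11.5% were higher here and 5.62% lower. The groups share no library. A division of the stressed vehicle group was already known, so its p-values below describe the gap and are not independent tests. The results over all 3 groups jointly include these libraries and carry the same limit.

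Cell cycle and skeleton led this contrast. Of 67 genes of G2 and mitosis 63 fell in replicates 1 to 3 against 4 to 6 and 0 rose, with a median log2 change of −1.61, while the median of all genes was 0.00. TOP2A read 7.76, 8.73 and 6.91 CPM against 39, 37.7 and 40.7 CPM (log2 change −2.31 ± 0.16 SE, n = 3 against 3, adjusted p = 3.6e-09 in edgeR). Of 24 cartilage and bone genes 20 fell. COL2A1 (ENSDARG00000069093) read 37.7, 43.5 and 46.9 CPM against 264, 275 and 304 CPM (log2 change −2.69 ± 0.13 SE, n = 3 against 3, adjusted p = 1.1e-11 in edgeR). In both genes every library of the first set lay far below every library of the second.

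The epidermis list had 29 of 37 genes lower and the liver list 39 of 60, with 1 higher in each. The keratin krt1-19e read 119, 92.4 and 89.9 CPM against 555, 609 and 449 CPM (log2 change −2.39 ± 0.23 SE, adjusted p = 2.28e-06 in edgeR). The lipoprotein apoa2 read 52.2, 33.4 and 59.7 CPM against 193, 317 and 466 CPM (log2 change −2.72 ± 0.55 SE, adjusted p = 0.00386 in edgeR). Neither gene's sets overlapped. Fast muscle had 23 of 73 lower. ACTA1 (ENSDARG00000055618) read 3.81, 4.49 and 5.42 CPM against 51.3, 28.3 and 72.4 CPM (log2 change −3.43 ± 0.61 SE, adjusted p = 0.00158 in edgeR), whereas ckma, at −1.98, did not pass (adjusted p = 0.0814 in edgeR).

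Among brain genes, 27 of 47 progenitor genes were lower and 1 higher. The tubulin tubb5 of the neuronal list read 45.4, 48.7 and 41.5 CPM against 171, 159 and 195 CPM (log2 change −1.93 ± 0.18 SE, adjusted p = 5.78e-07 in edgeR). Neurons divided into 6 higher and 14 lower of 76, and SNAP25 (ENSDARG00000020609) had a log2 change of 0.03 ± 0.18 SE (adjusted p = 0.923 in edgeR). Photoreceptor genes divided into 10 higher and 11 lower of 57. Over all genes tested the shares were 12% higher and 12% lower, so neither split is read as particular to its list. Red opsin opn1lw2 was lower, at 335, 487 and 374 CPM against 1460, 1404 and 1448 CPM (adjusted p = 1.5e-06 in edgeR). The lens list, lowest in the unstressed set, had 1 higher and 3 lower of 54, and CRYBB1 had a log2 change of 0.20 ± 0.22 SE (adjusted p = 0.568 in edgeR).

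Clock genes were higher in 16 of 34 cases and lower in 0, and glucocorticoid receptor targets higher in 12 of 23 and lower in 2. IRS2 (ENSDARG00000075282) read 576, 611 and 563 CPM against 265, 262 and 293 CPM (log2 change 1.12 ± 0.11 SE, adjusted p = 2.76e-07 in edgeR). FKBP5, at 552, 575 and 590 CPM against 438, 453 and 485 CPM, did not pass (adjusted p = 0.45 in edgeR).

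**Figure D5:**
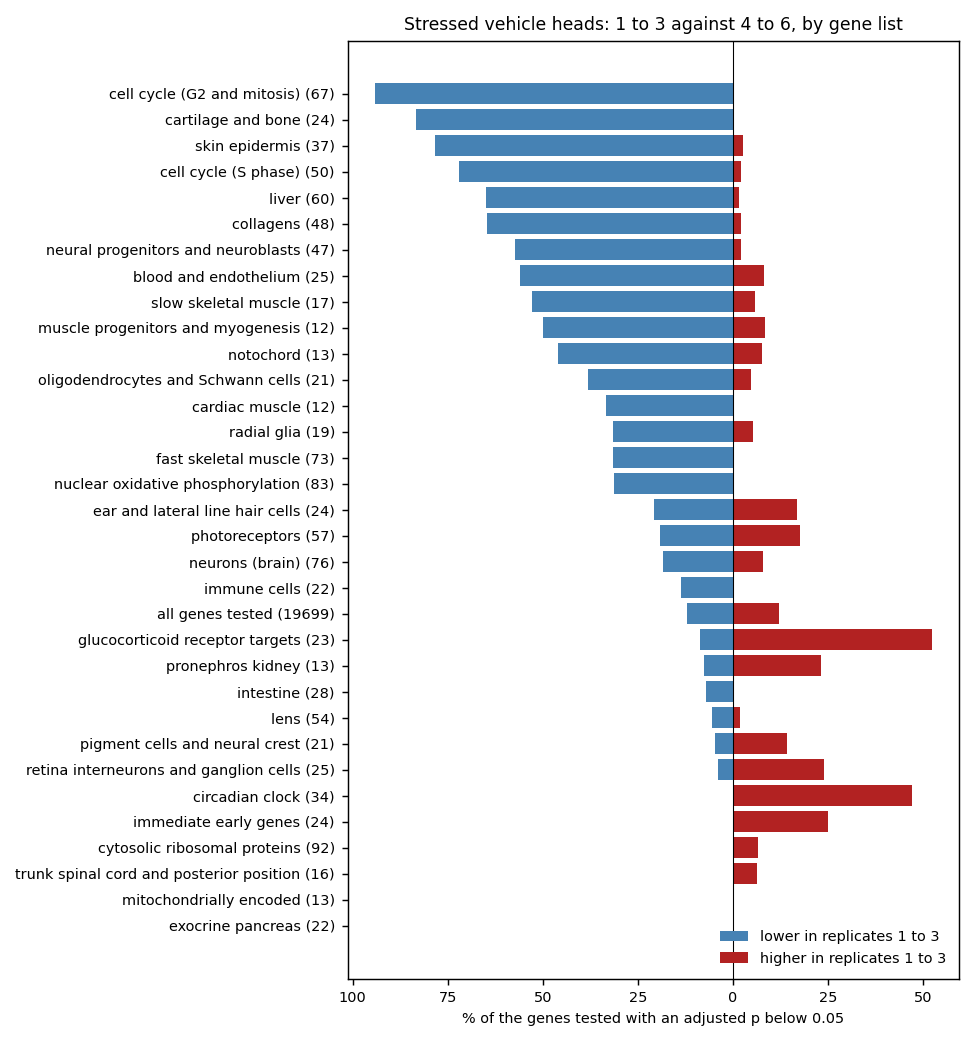
Share of the genes tested in each list that were lower (left) or higher (right) in replicates 1 to 3 than in 4 to 6 of the stressed vehicle group at an adjusted p below 0.05 in edgeR, with the number tested in parentheses. G2 and mitosis (63 of 67) and cartilage and bone (20 of 24) have the longest bars to the left, and glucocorticoid receptor targets (12 of 23) and clock genes (16 of 34) the longest to the right. A division of this group was known beforehand, so the calls are a description.

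Far fewer genes passed in the fluoxetine groups. In the unstressed fluoxetine group 8 genes were higher (0.0406%) and 66 lower (0.335%), and 60 of those 66 were among the 3863 genes higher in the unstressed vehicle set (90.9% of the 66, 1.55% of the 3863). Epidermal genes made up 6 of them and liver genes 2. The gene evpla, whose product envoplakin belongs to a family of proteins at epithelial cell junctions, read 5.28, 3.82 and 3.38 CPM against 7.64, 11 and 19 CPM (log2 change −1.60 ± 0.27 SE, adjusted p = 0.0179 in edgeR). This count fell to 0 when replicate 2, 3 or 6 of that group was left out and rose to 939 without replicate 4, so it rests on single libraries. In the stressed fluoxetine group 0 genes passed in edgeR and 0 in DESeq2, with 2154 at an unadjusted p under 0.05 in edgeR. Over all 3 groups jointly 28 genes were higher (0.142%) and 264 lower (1.34%), of which 235 (89.0% of the 264, 6.08% of the 3863) were higher in the unstressed vehicle set. For both overlaps, the base is 3863 of all 19699 genes tested. The set difference was unequal among the 3 groups for 2365 genes (12%), among them 61 of 67 genes of G2 and mitosis, 19 of 24 of cartilage and bone and 7 of 73 of fast muscle.

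The comparisons of the study that use these 6 libraries as their controls were repeated with either set left out. The sets were chosen from the values of these controls, and libraries within a set are alike by that choice. Counts with a set left out, here and for fluoxetine below, therefore only describe dependence on the controls and are not independent tests. Stressed against unstressed vehicle heads gave 1180 genes higher (5.82%) and 3123 lower (15.4%) with all 6. Without replicates 1 to 3 the counts were 465 higher (2.27%) and 77 lower (0.375%), and without replicates 4 to 6 they were 6405 higher (30.5%) and 6933 lower (33%). Both counts thus moved with the choice of controls, the lower genes more when replicates 1 to 3 were left out and the higher genes more when replicates 4 to 6 were. Fast muscle had 54 of 73 lower with all 6 libraries, 0 without replicates 1 to 3 and 66 of 74 without replicates 4 to 6. Nuclear oxidative phosphorylation genes went from 55 of 83 lower to 0 and to 77, and liver genes from 25 of 60 to 0 and to 44 of 61. Genes of G2 and mitosis had 10 of 67 lower, then 0, then 65. Lens genes had 0 of 54 higher, 0 and 45. Immediate early genes, switched on by neuronal activity and stress, had 22, 18 and 24 of 24 higher, and glucocorticoid receptor targets 17, 12 and 21 of 23.

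Unstressed fluoxetine against unstressed vehicle heads, which shares these controls, gave 720 genes higher (3.55%) and 1471 lower (7.26%). Without replicates 1 to 3 the counts were 403 higher (1.96%) and 355 lower (1.73%), and without replicates 4 to 6 they were 5791 higher (27.5%) and 6379 lower (30.3%). Epidermal genes had 3 of 37 lower and 0 higher with all 6, near the shares of all genes. Without replicates 1 to 3, 9 were higher and 0 lower, and without replicates 4 to 6, 26 were lower, against 30.3% of all genes. The median log2 change of the list was −0.67, 1.08 and −1.38 in these 3 settings, so only the median changed sign with the controls. Liver had 4 of 60 higher and 8 lower with all 6, 3 higher and 0 lower without replicates 1 to 3, and 6 higher and 45 lower of 61 without replicates 4 to 6. Genes of G2 and mitosis had 16 of 67 lower, then 0, then 66. Lens genes had 2 higher and 3 lower of 54, then 0 and 5, then 43 and 4.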

How the data were processed

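RNA-seq counts of 24 larval head libraries were used, with 48 adult forebrain libraries for a single comparison of levels. The authors deposited raw read counts per gene in 1 table, and per the labels the libraries were stranded mRNA libraries from pooled larvae. Per the submitters' processing notes the tools were bcl2fastq 2.17.1.14, cutadapt, STAR 2.5 and DESeq2; the sources used here give no counting program, strand setting or genome build. Reads of near-identical copies may be split, and a symbol shared by several entries is printed with its identifier; symbols came from a reference table that matched 29179 of 31902 entries.

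CPM used TMM library sizes over the 24 libraries, and log2 CPM a prior count of 2. Genes passed filterByExpr in edgeR 4.0.16 (count 10, total 15) under R 4.3.3; tests were robust quasi-likelihood F-tests with Benjamini-Hochberg adjustment over all genes tested and a threshold of 0.05. The division in the unstressed vehicle group had no test. In the 18 other libraries the replicate sets were tested per group, and for inequality among groups, in 1 fit with 6 cells of 3. The joint result over the 3 groups came from a separate fit of group plus set, which takes the set difference as common to the groups. The scripts were tested on simulated data. Alternatives were other size factors, DESeq2 1.42.0, other filters and prior counts, a replicate block and leaving out libraries.

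Members, the 35 gene lists and tests were chosen with earlier results of these data known. Named genes were up to 6 of each list with the largest difference between the sets, the 15 largest in each direction, the lowest p of the set tests, and a fixed set of tissue markers; part of these is printed. No 2 libraries of a group agreed within sampling noise.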

Additional observations from a re-analysis of the deposited data

Results flagged for a closer look

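The difference between replicates 1 to 3 and 4 to 6 was unequal among the stressed vehicle, unstressed fluoxetine and stressed fluoxetine groups for 2365 genes by the interaction term in edgeR. It was looked at because groups under the same contrast differed. Of 83 measures over the 6 unstressed vehicle libraries, 0 had an end value beyond Dixon's limit of 0.625. The measures were the mean log2 CPM of lists and the CPM of single genes. Many of the genes were chosen for a difference between the sets, and a gap between sets of 3 leaves little room for an end gap. The measures also share genes and libraries. The count of 0 therefore cannot show whether any library is an outlier.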

How the results depend on the processing

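The medians of 18 lists recomputed for the unstressed vehicle group had the same sign under each scaling, filter and prior count tried, and the other lists, among them oligodendrocytes at −0.02, were not recomputed; with library sizes taken outside the muscle, liver, pancreas and intestine lists the median of all genes shifted by 0.12 and the counts were 4626 higher and 1243 lower. Leaving out 1 library gave 4020 to 4698 genes higher and 1577 to 2407 lower, and medians of 1.95 to 2.42 for fast muscle, 1.91 to 2.43 for slow muscle, 2.62 to 3.73 for liver, 1.71 to 2.49 for S phase, 2.22 to 3.53 for G2 and mitosis and −0.57 to −0.18 for neurons. It gave 59 to 642 genes for the set difference over the 3 other groups, 2924 to 5212 in stressed vehicle, 0 to 939 in unstressed fluoxetine, 0 to 2 in stressed fluoxetine and 1342 to 3743 for the inequality. For the controls, it gave 1864 to 7181 genes for stress in vehicle and 398 to 5191 for fluoxetine in unstressed larvae. DESeq2 called 1192 genes over the 3 groups, 582 in unstressed fluoxetine and 3319 for fluoxetine against vehicle. Without replicates 1 to 3 the totals were 542 for stress and 758 for fluoxetine; without replicates 4 to 6 they were 13338 and 12170, from 3 controls. The cause was not tested. With a replicate block the counts were 2153 and 618. Same-numbered libraries did not deviate together (r from −0.59 to −0.25 for stress, −0.40 to −0.01 for fluoxetine, 0 of 6 above 0.1 in each), so the numbers were not taken as pairs. Of 396 single-gene values under alternatives, 376 kept their side of the threshold and 20 from 6 genes lost it. These genes were PER1 (ENSDARG00000056885), atp5mc1, evpla, CAPN9, ABCA12 and ESRP1. A change of sign was counted only where the gene passed in the main or the alternative setting, and 0 values had one. Changes of sign in genes that passed in neither were not counted. Depth limits the hox9 to hox13 genes, which rest on a few CPM.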
